A study of Mus musculus with 48 samples.

Results

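The cast effect in the tibia of WSB/EiJ mice was measured in 6 of the 48 libraries of the series: the immobilized tibia and the control tibia of the mice numbered 2, 4 and 5. The libraries were chosen by their labels alone, and the effect was described across the 16882 genes that passed the filter on low counts, out of 32544 rows in the count table. WSB/EiJ is an inbred strain derived from wild house mice, and the study set it beside 7 other inbred strains: PWK/PhJ, NZO/HlLtJ, NOD/ShiLtJ, CAST/EiJ, C57BL/6J, A/J and 129S1/SvImJ. All animals were males aged 19 weeks with no engineered allele named in the labels. Casting restrained the left hindlimb of each mouse over 3 weeks, with its own uncast right limb as the control. Every cast limb was therefore a left limb, so that side and cast cannot be told apart, and a control limb in a mouse with 1 cast leg is not the limb of an untreated mouse. The tissue was the tibial metaphysis, the flared region of the long bone below the growth plate, which holds trabecular bone together with marrow.

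Bone is kept in balance by osteoblasts, which lay down a matrix of type I collagen and mineral, by osteoclasts, which dissolve it, and by osteocytes, the matrix-embedded cells that sense load. Disuse is known to take bone away, in part because unloaded osteocytes release more sclerostin, the product of Sost and an inhibitor of Wnt signalling. Sympathetic nerves also reach bone and marrow, and norepinephrine acts there through adrenergic receptors. The α2A receptor, encoded by Adra2a, couples to an inhibitory G protein that lowers cAMP, and is found on nerve endings, platelets and other cells.

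The WSB/EiJ libraries held between 6180166 and 7700114 counts, within the range of 5253408 to 14744056 over the 46 usable libraries of the series. A pair of A/J control libraries held only 50 and 2335 counts and was left out with the cast limbs of the same mice. Markers of the labelled tissue were present in all 6 WSB/EiJ libraries: Col1a1, the main bone collagen, lay between 5584 and 31318 CPM (the counts of a gene scaled to a common library size), the osteocyte gene Dmp1 between 374 and 2074 CPM, and the osteoclast protease gene Ctsk between 572 and 1733 CPM. Hbb-bs, the β-globin gene of red cells, lay between 11452 and 30745 CPM, so RNA of red cells was in every sample. The control library of mouse 5 stood apart from the other 5, with a median correlation of 0.945 to them (log2 CPM across genes) against medians of 0.967 to 0.976 for the rest. In whole tissue of this kind, fewer cells of a type and less RNA per cell cannot be told apart.

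Adra2a was the only gene past a false discovery rate (FDR) of 0.05 in the paired edgeR quasi-likelihood test of WSB/EiJ, 1 of 16882 genes or 0.00592%. It was measured at 6.59, 2.65 and 4.25 CPM in the control limbs of mice 2, 4 and 5, and at 19.4, 10.1 and 16.1 CPM in the immobilized limbs of the same mice. The groups did not overlap, and each cast limb lay above its own control, by 1.52, 1.84 and 1.86 on the log2 scale. The group means were 4.50 ± 1.99 CPM for control and 15.2 ± 4.68 CPM for immobilized limbs (SD, n = 3), from 98 and 362 counts in all. Adra2a rose by 1.79 ± 0.26 on the log2 scale (SE, 95% confidence interval 1.25 to 2.33), with an edgeR FDR of 0.0293. DESeq2 also called it, with an adjusted p of 3.55e-05. The edgeR call was lost when the mouse term was dropped (FDR 0.193), when the WSB/EiJ libraries were fitted alone (FDR 0.13), when a skeletal muscle score was added to the model (FDR 0.0747), and when mouse 2, 4 or 5 was left out (FDR 0.0867, 0.267 and 0.261), while the log2 value stayed between 1.72 and 1.92 over all 13 alternatives. The gene lies at chr19:54044151-54048982 on the plus strand of GRCm38, in the GENCODE M21 annotation.

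**Figure D1:**
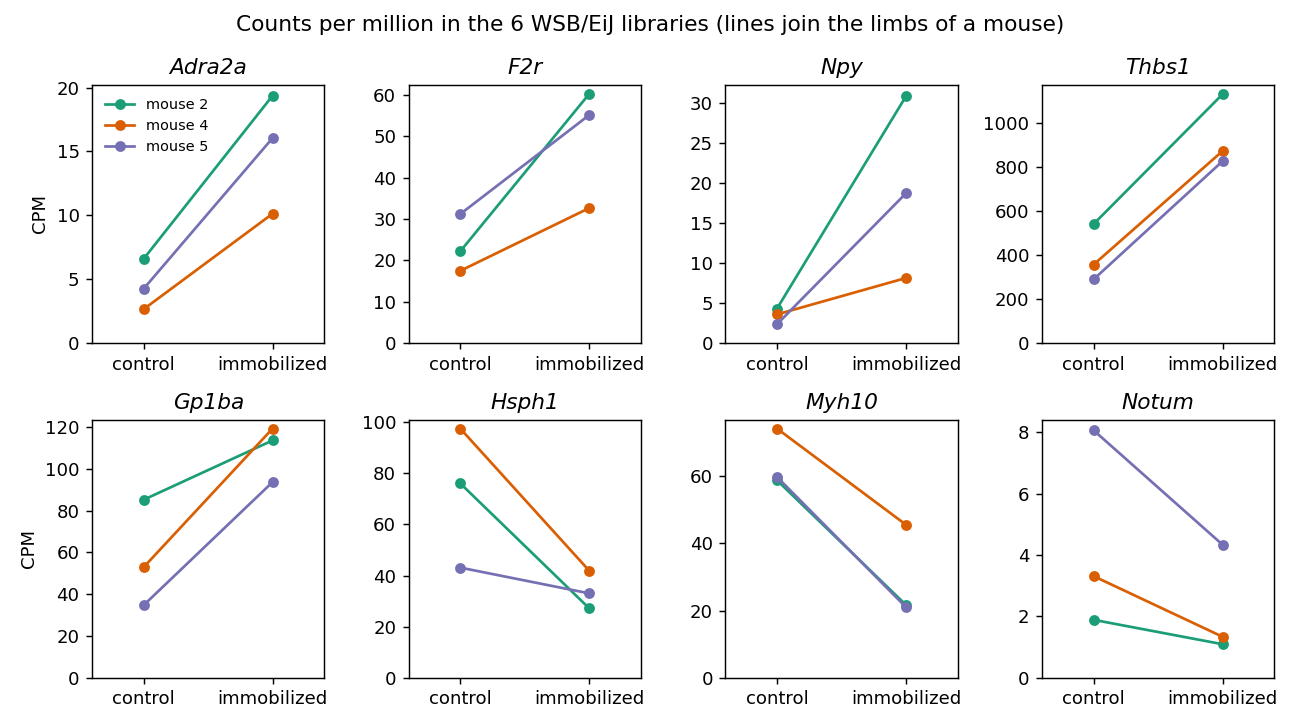
Level in CPM (vertical axes, linear) of Adra2a, F2r, Npy, Thbs1, Gp1ba, Hsph1, Myh10 and Notum in the control and immobilized tibia of the 3 WSB/EiJ mice. Points are libraries and lines join the limbs of a mouse. Adra2a runs from 2.65 to 6.59 CPM in control limbs and from 10.1 to 19.4 CPM in immobilized limbs, and the lines of each mouse point the same way in all 8 genes.

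The Adra2a value was compared with the same contrast in other strains, whose libraries are their own. CAST/EiJ gave −0.16 for Adra2a on the log2 scale, and the WSB/EiJ effect exceeded it by 1.95 ± 0.37 (SE, edgeR FDR of the difference 0.0125). NOD/ShiLtJ gave 0.40, and the difference of 1.39 did not pass (edgeR FDR 0.107). The mean of the 7 other strains was 0.23 for Adra2a, and the difference of 1.55 from it had an unadjusted p of 2.79e-05 in edgeR but an FDR of 0.31. C57BL/6J gave the next highest value, 0.79. Whether the gene responds in WSB/EiJ alone was therefore not shown, apart from the difference to CAST/EiJ.

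**Figure D2:**
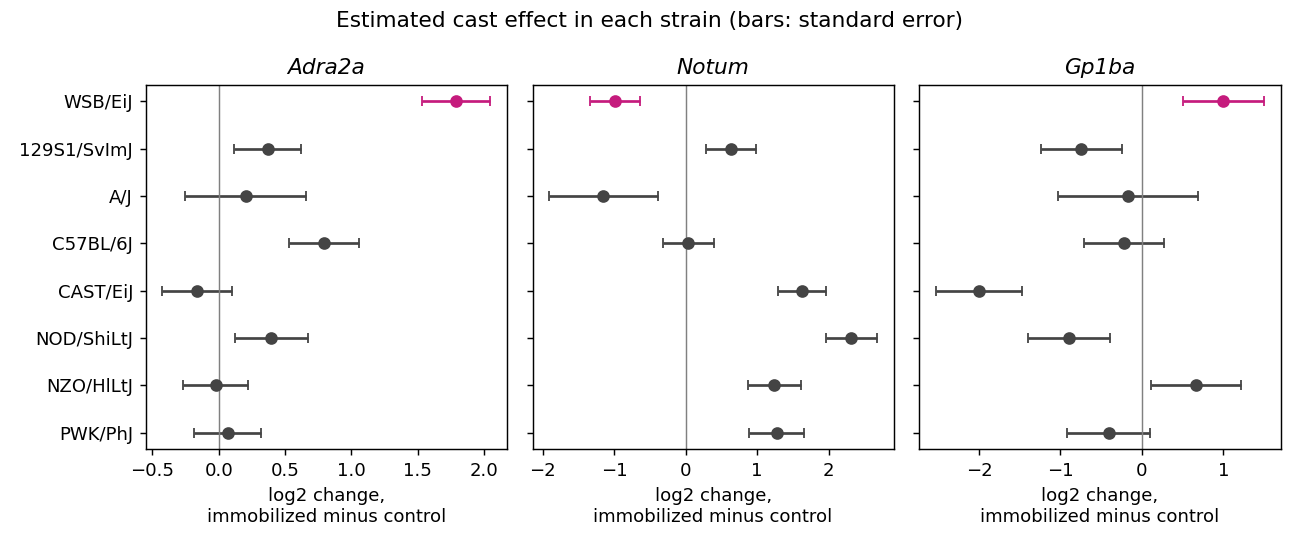
Log2 change of immobilized against control tibia (horizontal axes) for Adra2a, Notum and Gp1ba in each of 8 strains, with bars of ± 1 SE from the paired fit. Adra2a is at 1.79 in WSB/EiJ and at −0.16 in CAST/EiJ. Notum and Gp1ba have opposite signs in WSB/EiJ and CAST/EiJ.

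The other adrenergic receptors described here had values below 0 and none passed the test. Adra2b and Adra2c, the other α2 receptors, had log2 values of −0.86 and −1.29, Adra1a −0.97, and the fat-cell receptor Adrb3 −1.18, all at no more than 1.90 CPM in any WSB/EiJ library. Adrb1, Adra1b and Adra1d did not pass the filter on low counts. Of 14 genes of cAMP and G protein signalling, 8 had log2 values above 0 and 6 below, with a median of 0.12, and none passed the FDR.

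Because 1 gene passed, the genes next in order are given as values, the 12 with the smallest p in each direction among named genes with the same direction in 3 of 3 mice. That rule favours genes whose groups do not overlap, so their separation follows in part from the choice. Across all genes, 1086 (6.43%) had an unadjusted p under 0.05 in edgeR, 520 of them higher (3.08%) and 566 lower (3.35%) in the cast limbs. In 724 genes (4.29%) every immobilized library lay above every control library, and in 717 (4.25%) every one lay below. DESeq2, fitted with the same model, called 21 genes, 10 higher and 11 lower. The lower ones include the gene model Gm45234, with an extreme DESeq2 log2 value of −22.8 ± 4.42 (SE) and an edgeR FDR of 0.832.

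Among the higher genes F2r, Thbs1 and Npy encode signalling or matrix proteins. F2r, the thrombin receptor PAR1, was at 22.2, 17.5 and 31.2 CPM in control limbs and at 60.3, 32.6 and 55.2 CPM in the immobilized limbs of mice 2, 4 and 5. Its groups did not overlap, with a log2 value of 1.06 ± 0.21 (SE), an edgeR FDR of 0.271 and a DESeq2 adjusted p of 0.00841. Thbs1, which encodes thrombospondin 1, a matrix glycoprotein stored in platelet granules, had 542, 357 and 289.9 CPM in control and 1132, 874 and 828 CPM in immobilized limbs. Here too no library of one group reached into the other, and the log2 value of 1.29 ± 0.31 had an edgeR FDR of 0.345 and a DESeq2 adjusted p of 0.0229. Npy, the neuropeptide Y that sympathetic nerves release together with norepinephrine, stood at 4.31, 3.57 and 2.34 CPM in control limbs and 30.9, 8.13 and 18.7 CPM in immobilized limbs. Npy had a log2 value of 2.36 ± 0.49 (edgeR FDR 0.289, DESeq2 adjusted p 0.00806), with the smallest step in mouse 4. CAST/EiJ had 1.73 for Npy and the mean of the 7 other strains −0.34; neither difference passed the FDR. F2r exceeded its CAST/EiJ effect by 1.13 ± 0.30 (edgeR FDR 0.0404).

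The remaining higher genes were of mixed kinds. Fbp1, a fructose-bisphosphatase of gluconeogenesis, was at 5.79, 4.23 and 1.47 CPM in control and 22.4, 9.73 and 14.4 CPM in immobilized limbs (log2 2.06 ± 0.43, DESeq2 adjusted p 0.00621). Tmem132b, a membrane protein gene, had 1.75, 0.926 and 2.34 CPM in control and 16.1, 5.46 and 10.8 CPM in immobilized limbs, and Peg10, an imprinted gene derived from a retrotransposon, 3.90, 4.63 and 4.40 CPM and 21.6, 10.3 and 13.3 CPM. In all of these the 3 cast limbs lay above the 3 controls. Ctla2a, an inhibitor of cysteine proteases, had a log2 value of 0.81, the scaffold gene Dlg2 1.13, Nacc2 0.69, Cela1 1.16 and the cystatin gene Stfa1 1.71, with overlap between the groups for Stfa1 alone. Dlg2 differed from its CAST/EiJ effect of −0.94 by 2.07 ± 0.37 (edgeR FDR 0.0104). None of these passed the edgeR FDR within WSB/EiJ.

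On the lower side Bcl7a, Myh10 and Cyth3 had the smallest p. Bcl7a, a subunit of the BAF chromatin remodelling complex, was at 35.5, 50.9 and 51.4 CPM in control limbs and 19.4, 32.5 and 31.6 CPM in immobilized limbs (log2 −0.74 ± 0.13, edgeR FDR 0.135, DESeq2 adjusted p 0.00355). Myh10, the heavy chain of non-muscle myosin IIB, had 58.8, 74.2 and 59.8 CPM in control and 21.7, 45.6 and 21.02 CPM in immobilized limbs (log2 −1.21 ± 0.22, edgeR FDR 0.135, DESeq2 adjusted p 0.00127). Cyth3, an exchange factor for ARF GTPases, had 47.8, 74.3 and 80.2 CPM in control and 36.7, 41.0 and 39.0 CPM in immobilized limbs (log2 −0.76 ± 0.14, edgeR FDR 0.135, DESeq2 adjusted p 0.00228). No immobilized library of these genes reached the lowest control. Bcl7a and Myh10 were lower elsewhere too, with −0.49 and −0.55 in the mean of the 7 other strains (edgeR FDR 0.000375 and 0.00465), whereas Cyth3 was at 0.08 in CAST/EiJ and differed from it by −0.84 ± 0.20 (edgeR FDR 0.0247).

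Ecm2 and Ntn4, both of the extracellular matrix, were further genes of the lower side. Ecm2, an extracellular matrix gene, was at 9.02, 22.2 and 43.2 CPM in control and 6.18, 3.86 and 8.66 CPM in immobilized limbs (log2 −1.82 ± 0.40). Ntn4, which encodes netrin 4 of basement membranes, had 10.6, 14.02 and 26.2 CPM in control and 8.11, 6.93 and 4.59 CPM in immobilized limbs (log2 −1.29 ± 0.30). Both had their highest control in mouse 5, the library that stood apart, and in both the groups did not overlap. Pamr1 had a log2 value of −1.50, the axonal adhesion gene Cntn1 −1.55, Reps2 −0.77, Neurl4 −0.45, the cilium gene Cys1 −1.80 and the nucleoside transporter gene Slc29a1 −0.56. Slc29a1 and Cys1 overlapped between groups although each mouse gave a lower cast limb. The differences from CAST/EiJ were −2.08 for Ecm2, −2.23 for Ntn4, −0.97 for Slc29a1 and −2.13 for Cys1 (edgeR FDR 0.0416, 0.0136, 0.0114 and 0.0403).

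Genes of bone formation were split in WSB/EiJ. Of 21 osteoblast and bone matrix genes, 10 had log2 values above 0 and 11 below, beside 48.2% and 51.8% of all genes tested, and their median was −0.02 against −0.01 for all genes. Col1a1 was at 9324, 15797 and 6171 CPM in control and 5584, 31318 and 14976 CPM in immobilized limbs of mice 2, 4 and 5. Bglap, the osteocalcin gene of mature osteoblasts, was at 639, 1016 and 525 CPM in control and 179, 1139 and 818 CPM in immobilized limbs. In both genes mouse 2 had a lower cast limb and mice 4 and 5 a higher one. The medians of the list were −0.40, 0.35 and 0.43 in the 3 mice. The fitted median was 0.42, with 15 of 21 above 0, when the skeletal muscle score was in the model, and 0.256, with 13 above 0, without mouse 2. Ibsp, the bone sialoprotein gene, had a log2 value of 0.20 and Alpl, the alkaline phosphatase of mineralization, −0.13. Cthrc1, a secreted protein of matrix-forming cells, was the 1 member of 21 whose groups did not overlap, near the 4.29% of all genes, at 21.8, 14.7 and 24.2 CPM in control and 35.2, 56.4 and 65.0 CPM in immobilized limbs (log2 1.35 ± 0.55, edgeR FDR 0.74).

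The same genes had large values in the strains with the most calls. CAST/EiJ called 2339 genes (13.9%) and NOD/ShiLtJ 1407 (8.33%), and the osteoblast list had medians of 2.39 and 2.04 there, with 17 of 21 members called in CAST/EiJ. The difference between WSB/EiJ and CAST/EiJ passed the edgeR FDR for 11 of the 21, all lower in WSB/EiJ, where 3.12% of all genes were. It was −3.27 ± 0.82 for Col1a1 (FDR 0.0332), −3.62 ± 0.85 for Bglap (FDR 0.0284) and −2.45 ± 0.55 for Alpl (FDR 0.0221). Against NOD/ShiLtJ the differences were −1.74 for Col1a1 and −2.29 for Bglap, and no gene passed.

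Osteocyte genes were mostly on the lower side. Of 11 measured, 1 had a log2 value above 0 and 10 below, with a median of −0.65, and none passed the FDR. Sost was at 117, 498 and 1300.3 CPM in the control and 102, 199 and 368 CPM in the immobilized limbs of mice 2, 4 and 5, lower in each mouse but with a log2 value of −1.12 ± 0.72 (SE, edgeR FDR 0.845). Dmp1 had 374, 1123 and 2074 CPM in control and 548, 496 and 861 CPM in immobilized limbs and Mepe, another matrix protein gene of osteocytes, 262, 831 and 3791 CPM and 436, 526 and 1489.8 CPM. The controls of the 3 mice were far apart, and the summed osteocyte level was 1478, 3745 and 9605 CPM in control and 1805, 1903 and 3921 CPM in immobilized limbs. The list median was 0.00, −0.78 and −1.07 in mice 2, 4 and 5, and between −1 and −0.49 when 1 mouse was left out. With the skeletal muscle score in the model it was −0.179, with 4 members above 0 and 7 below. Irx5, a homeobox gene, was lower in each mouse and differed from its CAST/EiJ effect by −2.58 ± 0.50 (edgeR FDR 0.0136).

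Osteoclast genes were split, 7 above 0 and 9 below of 16, with a median of −0.08 (0.173 with the skeletal muscle score, 0.0614 without mouse 5). Ctsk was at 584, 572 and 1733 CPM in control and 819.9, 831 and 1567 CPM in immobilized limbs, and Acp5, the tartrate-resistant phosphatase, at 874, 624 and 1583 CPM and 639, 677 and 1198 CPM. Their groups overlapped, with log2 values of 0.30 ± 0.54 for Ctsk and −0.25 ± 0.45 for Acp5. Itgb3, the integrin β3 that osteoclasts and platelets share, was higher in every cast limb, at 688, 497 and 489 CPM in control and 1157, 936 and 886 CPM in immobilized limbs. Its log2 value was 0.84 ± 0.28 (edgeR FDR 0.672), and it exceeded the CAST/EiJ effect by 1.52 ± 0.40 (edgeR FDR 0.0409). The osteoclast regulators were split 5 to 5: Tnfsf11, which encodes the differentiation signal RANKL, had a log2 value of 0.11, its decoy receptor gene Tnfrsf11b −0.49 and the survival factor gene Csf1 −0.29.

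Wnt target and feedback genes had 3 values above 0 and 9 below of 12, with a median of −0.35. Notum, a secreted enzyme that inactivates Wnt proteins, was at 1.88, 3.31 and 8.06 CPM in control and 1.09, 1.33 and 4.33 CPM in immobilized limbs. Each mouse had a lower cast limb while the groups overlapped, and the log2 value was −0.99 ± 0.35 (SE, edgeR FDR 0.689). The difference from the CAST/EiJ effect of 1.63 was −2.62 ± 0.48 (edgeR FDR 0.0117), and that from the mean of the 7 other strains −1.85, with an unadjusted p of 0.000164 and an FDR of 0.4 in edgeR. Axin2 and Lef1, direct Wnt targets, had log2 values of −0.23 and −0.35 with overlapping groups. The list medians of the 3 WSB/EiJ mice ran from −0.45 to −0.01, those of the CAST/EiJ mice from 0.52 to 1.27 and those of the NOD/ShiLtJ mice from 0.35 to 1.65, a difference of lists that was not tested. Other strains had single mice at or below 0 as well: A/J at −1.56, NZO/HlLtJ at −0.43 and −0.04, 129S1/SvImJ at −0.04 and C57BL/6J at −0.02.

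Growth plate cartilage genes had 13 of 18 values below 0 and a median of −0.29, with opposite mice. Their medians were 0.79 in mouse 2, −0.58 in mouse 4 and −1.14 in mouse 5. The direction of the fitted median turned in some settings: it was 0.656 with the skeletal muscle score (12 of 18 above 0), 0.241 without mouse 5 (11 above 0) and −1.25 without mouse 2. Col10a1, the collagen of hypertrophic chondrocytes, was at 14.8, 0.265 and 69.0 CPM in control and 113, 0.133 and 5.73 CPM in immobilized limbs, and Acan, the cartilage proteoglycan, at 11.3, 7.94 and 83.7 CPM and 63.1, 3.06 and 23.1 CPM. These levels follow no group. Col2a1, the main cartilage collagen, did separate, with 418, 493 and 317 CPM in control and 152, 129.9 and 197 CPM in immobilized limbs (log2 −1.36 ± 0.98, edgeR FDR 0.867).

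Megakaryocyte and platelet genes had values above 0 throughout, and none of them passed the FDR. All 11 measured members had log2 values above 0, with a median of 0.87, and 10 were higher in 3 of 3 mice, beside 14.2% of all genes. The groups did not overlap for 5 of them, beside 4.29% of all genes higher in that way, and 5 had an unadjusted p under 0.05, beside 3.08%. Thbs1 is among these members and was also 1 of the genes with the smallest p. Itga2b, the integrin αIIb of platelets, had 403, 226 and 179.9 CPM in control and 488, 457 and 449.7 CPM in immobilized limbs, and Gp1ba, a chain of the von Willebrand factor receptor, 85.2, 52.9 and 34.7 CPM and 114, 119 and 93.7 CPM. In both genes each cast limb lay above all controls. Pf4, platelet factor 4, had 262, 151 and 102 CPM in control and 337, 256 and 285 CPM in immobilized limbs and overlapped, because the control of mouse 2 was above the cast limb of mouse 4.

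The summed level of the list was 2629, 1536 and 1211 CPM in control and 3740, 3095 and 2950 CPM in immobilized limbs, with no member at 0 in any library. The median of the 11 genes was 0.40, 1.01 and 1.42 in mice 2, 4 and 5, and 1.17, 0.91 and 0.66 in the fits without mouse 2, 4 and 5. It was negative in each of the CAST/EiJ mice, from −1.63 to −0.87, and in each of the NOD/ShiLtJ mice, from −1.09 to −0.32. It was above 0 in some mice of other strains: 2.81 and 0.07 in NZO/HlLtJ, 0.18 in A/J, 0.07 and 0.17 in C57BL/6J and 0.14 in PWK/PhJ. The difference from CAST/EiJ passed the edgeR FDR, among others, for Gp1ba at 3.00 ± 0.73 (FDR 0.0307) and for Pf4 at 1.61 ± 0.43 (FDR 0.0434), where 1.13% of all genes were higher. Adra2a, Itgb3 and Thbs1 are known platelet or megakaryocyte genes as well, and the part of these cells in their values was not tested.

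Skeletal muscle genes, which mark the fibres of limb muscle, had the list median farthest below 0. Of 20 skeletal muscle genes, 2 had log2 values above 0 and 18 below, with a median of −2.72, and in 16 no immobilized library reached the lowest control, beside 4.25% of all genes. Acta1, the skeletal α-actin gene, was at 41.2, 36.0 and 103 CPM in control and 3.27, 8.13 and 3.19 CPM in immobilized limbs, and Myh4, the fast myosin heavy chain of type IIB fibres, at 40.2, 36.1 and 46.3 CPM and 2.18, 7.33 and 2.17 CPM. Ckm, the muscle creatine kinase, had 41.9, 37.6 and 64.2 CPM in control and 16.5, 19.3 and 12.2 CPM in immobilized limbs. Every group was separate in these 3 genes, and their log2 values of −3.56 ± 1.56, −3.56 ± 1.65 and −1.56 ± 1.23 had edgeR FDRs of 0.756, 0.772 and 0.882. The sum over the list was 407, 313 and 818 CPM in control and 66.8, 126 and 77.7 CPM in immobilized limbs, and Myh2 was at 0 in the immobilized library of mouse 2. Tnnt1 of slow fibres had a log2 value of 0.26. The list median in the mean effect of the 7 other strains was −1.92, with −2.94 in NOD/ShiLtJ and −0.45 in CAST/EiJ. Single mice of the other strains were far apart, from −5.2 in NZO/HlLtJ to 4.6 in C57BL/6J. Further medians above 0 were 1.19 and 0.90 in CAST/EiJ, 0.32 in C57BL/6J, 0.80 in NZO/HlLtJ, 0.51 in 129S1/SvImJ and 0.28 in PWK/PhJ. The remaining mice lay below 0. Apart from the fits with a muscle score, the part of muscle in the other results was not tested.

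**Figure D3:**
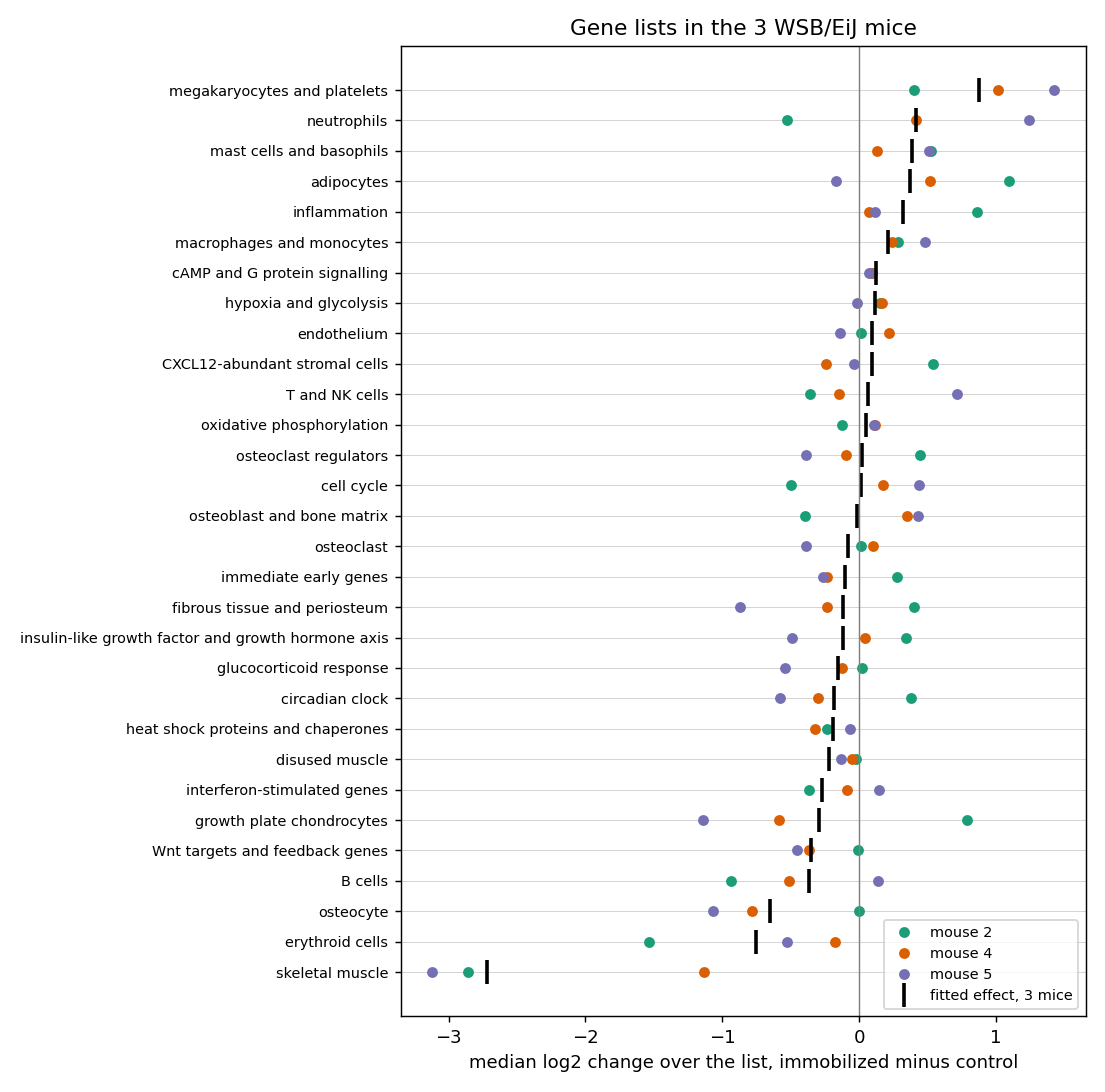
Median log2 change of immobilized against control tibia (horizontal axis) for 30 gene lists in WSB/EiJ. Points are the medians of mice 2, 4 and 5, and the bar is the median of the fitted effects over the list. Skeletal muscle lies farthest below 0 at −2.72, megakaryocytes and platelets farthest above at 0.87, and in lists such as growth plate cartilage and neutrophils the mice lie on both sides of 0.

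Heat shock proteins and chaperones were all on the lower side: 0 of 15 had a log2 value above 0 and 15 below, with a median of −0.19, and 8 were lower in 3 of 3 mice, beside 14.9% of all genes. Chaperones fold other proteins, and the inducible ones are made under heat shock factor 1, which binds inverted GAA blocks in promoters. Hsph1, a nucleotide exchange factor for HSP70, had 76.0, 97.5 and 43.1 CPM in control and 27.1, 41.8 and 33.0 CPM in immobilized limbs with no overlap (log2 −1.04 ± 0.20, edgeR FDR 0.196, DESeq2 adjusted p 0.00295). Its value was −1.13 in CAST/EiJ and −0.63 in the mean of the 7 other strains (edgeR FDR 0.00115), so that WSB/EiJ shared the direction. Hspa1a, the inducible HSP70, was at 3.50, 2.51 and 4.84 CPM in control and 0.605, 1.60 and 0.765 CPM in immobilized limbs (log2 −1.89 ± 0.77, edgeR FDR 0.74), and Hspa1b, a near-identical copy whose reads can be split with it, had −1.39. Cryab and Hspb1, small heat shock proteins also abundant in muscle, had log2 values of −2.55 and −0.81. The constitutive chaperone genes Hspa8 and Hsp90aa1 had −0.05 and −0.19 with overlapping groups. The muscle list was lower in the same limbs, as given above, and its part in the chaperone values was not tested.

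Promoters of 3 of these genes are shown because the chaperones had values in 1 direction, and because they differ in the heat shock element. The letters searched were GAANNTTC, the inverted pair of GAA blocks, which reads the same on both strands, in the 250 bases before each RefSeq start, from GRCm38.p6. Matches are in capitals, and bases that the annotation gives to a UTR are left out. Hspa1a is read from chr17:34972157-34972406 on the minus strand, Hspb1 from chr5:135887669-135887918 on the plus strand, and Hsph1 from chr5:149636377-149636586 on the minus strand.
Hspa1a: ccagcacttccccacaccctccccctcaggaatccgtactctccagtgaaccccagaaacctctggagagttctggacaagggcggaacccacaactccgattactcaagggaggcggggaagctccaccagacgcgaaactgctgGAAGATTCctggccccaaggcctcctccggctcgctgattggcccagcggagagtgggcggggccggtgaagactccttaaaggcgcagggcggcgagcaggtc
Hspb1: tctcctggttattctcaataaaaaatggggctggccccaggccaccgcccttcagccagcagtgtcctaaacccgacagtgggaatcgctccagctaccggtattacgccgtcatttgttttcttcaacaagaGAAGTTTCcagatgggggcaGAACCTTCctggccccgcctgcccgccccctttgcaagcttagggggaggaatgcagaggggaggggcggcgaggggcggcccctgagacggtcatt
Hsph1: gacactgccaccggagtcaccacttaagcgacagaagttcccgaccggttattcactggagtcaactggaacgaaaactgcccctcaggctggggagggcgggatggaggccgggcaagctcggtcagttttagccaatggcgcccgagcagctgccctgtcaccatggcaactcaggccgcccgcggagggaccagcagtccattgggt
Hspa1a has 1 match, its first base 104 bases before the start, Hspb1 has 2, the first at 117 bases, and Hsph1 has none in the 210 bases shown. Of all 32851 RefSeq mouse promoters, 2199 (6.69%) hold the letters. Of the 12 genes of the chaperone list with an entry, 5 (41.7%) hold them, beside 7.73% of 27025 genes: Hspa1a, Hspa1b, Hspb1, Hspd1 and Hspe1. A match describes the sequence only, and a window without one says only that these letters are not in it.

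Rbm3, a cold-inducible RNA-binding protein gene, was among the DESeq2 calls and is given after its values were seen. It was at 346, 327 and 317 CPM in control and 654, 526 and 474 CPM in immobilized limbs, with no overlap (log2 0.73 ± 0.18, DESeq2 adjusted p 0.0229, edgeR FDR 0.377). The mean of the 7 other strains was 0.41 for Rbm3 (edgeR FDR 0.00656). Cirbp, the related cold-inducible gene, also named after its value was seen, had 0.47 and overlapping groups.

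Several lineages of the blood-forming marrow had values that differed between the mice. Erythroid genes had 15 of 16 values below 0, with a median of −0.75, and 13 were lower in 3 of 3 mice, beside 14.9% of all genes. Their summed level was 78941, 49301 and 33684 CPM in control and 24782, 43418 and 27792 CPM in immobilized limbs, so that mouse 2 carried most of the difference. Alas2, the first enzyme of heme synthesis in red cells, had 988, 715 and 446 CPM in control and 352, 684 and 383 CPM in immobilized limbs (log2 −0.58 ± 0.80). Neutrophil genes had 14 of 17 values above 0 and a median of 0.41, with −0.53 in mouse 2, 0.41 in mouse 4 and 1.24 in mouse 5. It was −0.04 with the skeletal muscle score and −0.01 without mouse 5. S100a8, a subunit of the calprotectin of neutrophil cytosol, was at 8309, 3632 and 1599 CPM in control and 6914, 6324 and 3146 CPM in immobilized limbs (log2 0.51 ± 0.51). Of 16 B cell genes 13 had values below 0, with a median of −0.37, and Pax5, the B cell identity factor, was at 24.6, 16.1 and 23.0 CPM in control and 9.32, 6.66 and 22.4 CPM in immobilized limbs. No member of these lists passed the FDR within WSB/EiJ. Rag1, a recombinase gene of developing lymphocytes, had 0.10 in WSB/EiJ and −3.06 in CAST/EiJ, a difference of 3.17 ± 0.65 (edgeR FDR 0.017).

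Macrophage genes had 13 of 16 values above 0 and medians of 0.28, 0.24 and 0.48 in the 3 mice. Their summed level was 6417, 3929 and 2957 CPM in control and 4753, 4379 and 4200 CPM in immobilized limbs. That sum fell in mouse 2 and rose in mice 4 and 5. Spic, a transcription factor gene of iron-recycling macrophages, was at 13.3, 15.2 and 8.06 CPM in control and 20.9, 23.5 and 31.7 CPM in immobilized limbs (log2 1.06 ± 0.33, edgeR FDR 0.611). C1qa, which encodes a chain of complement C1q, had 101, 77.8 and 77.8 CPM in control and 123, 107 and 161 CPM in immobilized limbs, and Vsig4, a complement receptor of resident macrophages, 4.58, 7.54 and 4.69 CPM and 11.7, 14.7 and 9.94 CPM. These 3 genes and C1qc, 4 of the 16, were higher with no overlap of the groups, beside 4.29% of all genes. No member passed the FDR, and Adgre1, the F4/80 antigen gene, had a log2 value of 0.09.

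Fat cell genes all had fitted values above 0, 17 of 17 with a median of 0.37, and again the mice differed. Their summed level was 3099, 3186 and 15537 CPM in control and 8553, 5751 and 13657 CPM in immobilized limbs, so the control of mouse 5 was above every cast limb. Scd1, the stearoyl-CoA desaturase of lipid synthesis, was at 1034, 1162 and 8367 CPM in control and 4302, 2642 and 6933 CPM in immobilized limbs. Plin1, which coats the lipid droplet, was at 32.0, 26.7 and 215 CPM in control and 101, 59.6 and 172 CPM in immobilized limbs (log2 0.83 ± 0.68). The list medians were 1.10, 0.51 and −0.17 in mice 2, 4 and 5. Of the 17, 5 were higher in 3 of 3 mice, beside 14.2% of all genes.

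Lists of supporting and fibrous cells had medians near 0. Of 12 genes of CXCL12-abundant stromal cells, the marrow cells that keep blood stem cells in place, 9 had values above 0, with a median of 0.09, and Cxcl12 itself was at 2398, 2142 and 2574 CPM in control and 3061, 1756 and 3068 CPM in immobilized limbs. Of 15 genes of fibrous tissue and periosteum 10 had values below 0, with a median of −0.12 and opposite mice (0.40, −0.24 and −0.87). Of 13 endothelial genes 8 had values above 0, with a median of 0.09, and Cdh5, the vascular cadherin gene, had −0.18. Of 15 genes of T and NK cells 10 had values above 0 (median 0.07), and of 11 genes of mast cells and basophils 7 (median 0.39, or 0.131 with the skeletal muscle score). The mast cell medians were 0.52, 0.13 and 0.51 in the 3 WSB/EiJ mice, from −0.94 to −0.38 in the CAST/EiJ mice and from −0.57 to −0.42 in the NOD/ShiLtJ mice, a difference that was not tested. Medians above 0 were 0.82 in A/J, 0.96 and 0.21 in NZO/HlLtJ, 0.32 and 0.37 in PWK/PhJ, 0.34 in 129S1/SvImJ and 0.006 in C57BL/6J. The remaining mice of these strains lay below 0. The summed mast cell level was 446, 281 and 168 CPM in control and 363, 320 and 254 CPM in immobilized limbs. It was lower in the cast limb of mouse 2 alone. Kit, the receptor for stem cell factor on mast and progenitor cells, was at 71.6, 83.1 and 72.2 CPM in control and 113, 87.5 and 99.1 CPM in immobilized limbs, groups that did not overlap (log2 0.40 ± 0.21, edgeR FDR 0.807).

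Programmes known to respond to stress, hormones or activity gave small medians, and no member passed the FDR. Apart from inflammation and muscle disuse, each of these lists had mouse medians on both sides of 0. In mice 2, 4 and 5 they were 0.38, −0.30 and −0.58 for the clock and 0.28, −0.24 and −0.27 for immediate early genes. Those of proliferation were −0.50, 0.17 and 0.43, and those of inflammation 0.86, 0.07 and 0.11. Proliferation genes were split 8 to 8 with a median of 0.01, and Mki67, a marker of cycling cells, had a log2 value of −0.28. Oxidative phosphorylation genes had 14 of 21 values above 0 (median 0.05), and hypoxia and glycolysis genes 10 of 15 (median 0.12). Inflammation genes had 13 of 16 values above 0, with a median of 0.32, of which Tnf had 0.91 ± 0.48 and Il1b −0.03 ± 0.32. Interferon-stimulated genes had 12 of 17 values below 0 (median −0.27), and Isg15, a ubiquitin-like protein gene, was at 6.59, 5.95 and 4.98 CPM in control and 3.27, 2.80 and 3.19 CPM in immobilized limbs. The groups of Isg15 did not overlap (log2 −0.91 ± 0.29, edgeR FDR 0.629). Immediate early genes, switched on within minutes of a stimulus, had 12 of 16 values below 0 (median −0.11), and clock genes 12 of 16 (median −0.18). Glucocorticoid response genes had 8 of 12 values below 0 (median −0.16), and Tsc22d3, which encodes the hormone-induced GILZ protein, was at 127, 108 and 139 CPM in control and 90.7, 94.1 and 96.5 CPM in immobilized limbs. Genes of the insulin-like growth factor axis were split 6 above and 8 below (median −0.12), with 0.15 for Igf1. Muscle disuse genes had 11 of 14 values below 0 (median −0.22), among them Fbxo32, the atrophy ubiquitin ligase atrogin 1, at −0.53 ± 0.38.

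The mice shared little of the response across all genes. Over 16882 genes, the correlation of the log2 change was 0.0686 between mice 2 and 4, 0.0506 between mice 2 and 5, and 0.343 between mice 4 and 5. Over the 10411 genes with a mean of at least 10 CPM it was 0.0559, 0.062 and 0.587. These values describe genes, which share libraries and are not independent. Mouse 2 thus stood apart in its change, as it did in the osteoblast, growth plate, neutrophil and osteocyte lists. The SD of the log2 change over genes was 0.631, 0.594 and 0.752 in mice 2, 4 and 5, ranks 6, 3 and 13 from the lowest of 22 mice.

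**Figure D4:**
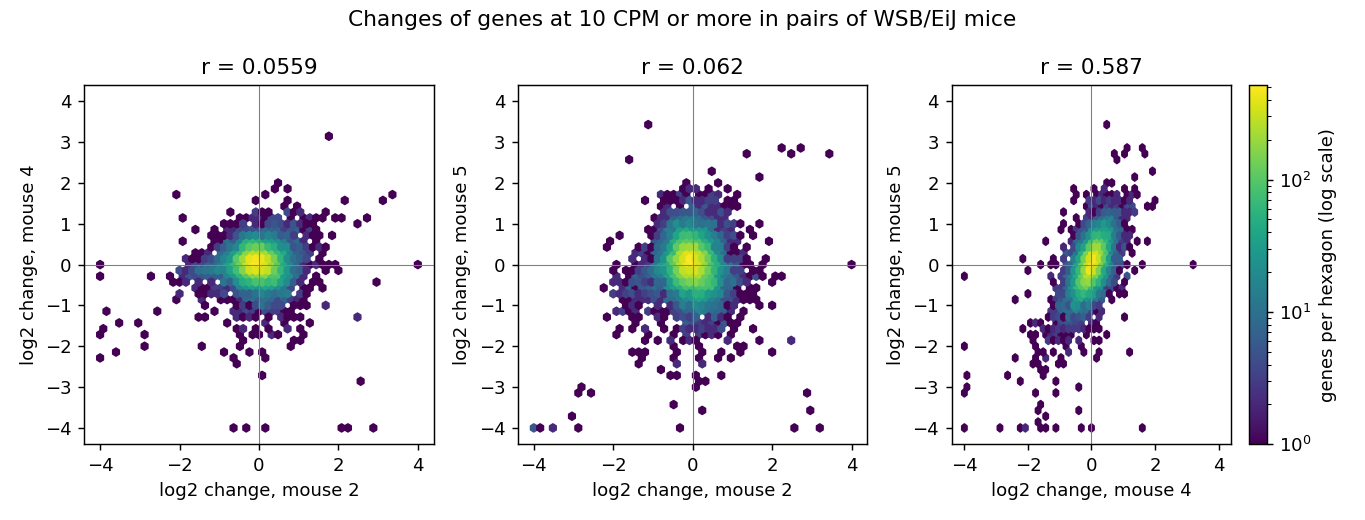
Log2 change of immobilized against control tibia in 1 WSB/EiJ mouse against another, for the 3 pairs of mice and the 10411 genes with a mean of at least 10 CPM, with genes beyond the axis range drawn at its edge. Shade gives the number of genes per hexagon on a log scale. Pearson correlations are 0.0559 for mice 2 and 4, 0.062 for mice 2 and 5 and 0.587 for mice 4 and 5.

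The difference between the WSB/EiJ and CAST/EiJ effects passed the edgeR FDR in 717 genes (4.25%), of which 190 were higher and 527 lower in WSB/EiJ. Of the 527, 500 (94.9%) were called in CAST/EiJ itself, with a median log2 value of 1.53 there and −0.27 in WSB/EiJ. Of the 190, 160 (84.2%) were called in CAST/EiJ, with medians of −0.80 and 0.34. Of all genes, 13.9% were called in CAST/EiJ. Both sets were picked with the CAST/EiJ effect itself, so the overlap and the opposite medians follow in part from the choice of genes. The count of 717 became 603 without WSB/EiJ mouse 2, 150 without mouse 4 and 23 without mouse 5, so it rests largely on mouse 5. It was 8 with no mouse block and 358 with the skeletal muscle score, and the differences from CAST/EiJ given above are subject to the same limit. Dcn, the decorin gene of connective tissue, differed by −3.03, and Cdkn1a, the cell cycle inhibitor p21, by −1.85. No gene passed against NOD/ShiLtJ (0%), with 2751 (16.3%) at an unadjusted p under 0.05 in edgeR and 537 called by DESeq2. No gene passed against the mean of the 7 other strains (0%), with 1046 (6.2%) at an unadjusted p under 0.05 and 7 called by DESeq2.

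**Figure D5:**
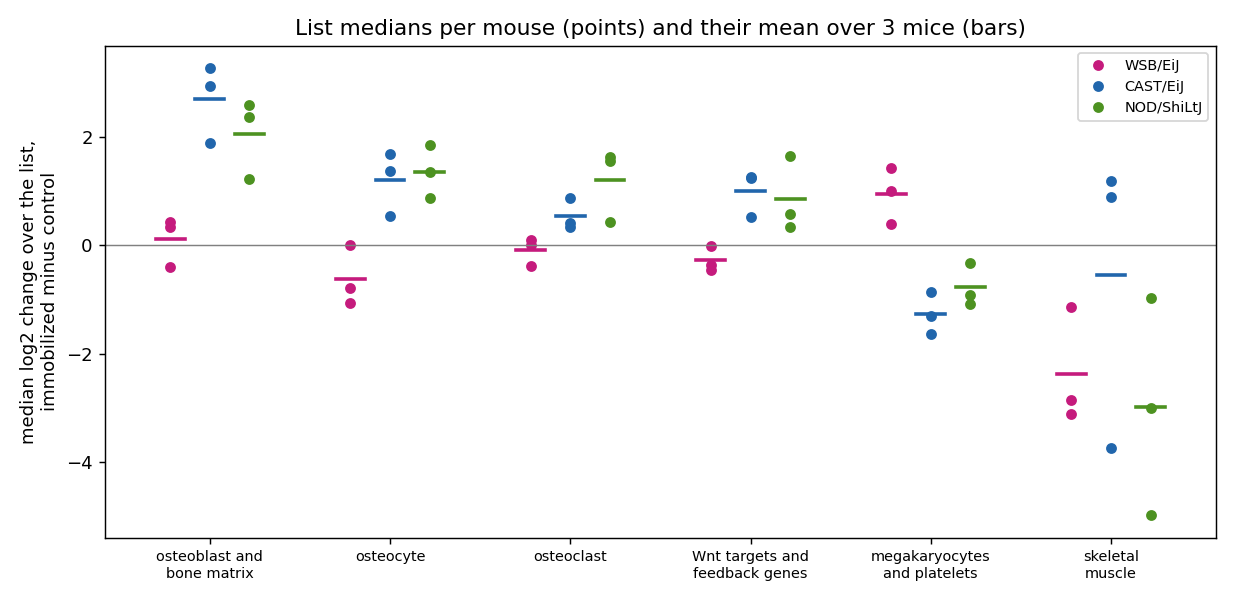
Median log2 change of immobilized against control tibia (vertical axis) of 6 gene lists in WSB/EiJ, CAST/EiJ and NOD/ShiLtJ. Points are mice and bars their means over 3 mice. The megakaryocyte and platelet list is above 0 in each WSB/EiJ mouse, from 0.40 to 1.42, and below 0 in each CAST/EiJ and NOD/ShiLtJ mouse.

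Genes that changed in the other strains were then read in WSB/EiJ. The mean effect of the 7 other strains, which takes no limb effect from WSB/EiJ, had 1167 called genes (6.91%). Filter, scaling and fitted spread were shared with the WSB/EiJ libraries, so the calls are not independent of them. Without WSB/EiJ mouse 2, 4 and 5, 1089, 1000 and 1004 genes were called. Of the 1167 genes, 827 (70.9%) had the same sign in WSB/EiJ, beside 56.9% of all genes. Their median size was 0.14 in that direction in WSB/EiJ against 0.45 in the other strains. By mouse the share was 66.4%, 67.7% and 61%. It depended on A/J, which has 1 mouse in the fit: with that strain left out, 3206 genes were called and 52.2% had the same sign. Of the genes called in CAST/EiJ, 44.6% had the same sign in WSB/EiJ, beside 47.3% of all genes, and of those called in NOD/ShiLtJ 52%, beside 49.4%. Only 15 genes were called in PWK/PhJ, and 14 of them (93.3%) had the same sign in WSB/EiJ, beside 49.9% of all genes.

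The genes with the smallest p in the other strains gave these WSB/EiJ values. H1f0, a linker histone gene of resting cells, was at 118, 119 and 138 CPM in control and 196, 176 and 177 CPM in immobilized limbs, with no overlap and a log2 value of 0.55 ± 0.15, against 0.74 in the other strains. Bcan, which encodes the proteoglycan brevican, had 1.21, 1.98 and 0.733 CPM in control and 2.42, 9.59 and 7.52 CPM in immobilized limbs (log2 2.20, other strains 2.36). C1qtnf6, a secreted C1q-related protein gene, had 0.69 against 1.21, Rab11fip4 0.39 against 0.67, Ctsh, the cathepsin H gene, 0.20 against 0.52, and Ctxn1 0.60 against 1.31. On the lower side Ppid, a cyclophilin that works with HSP90, had −0.41 against −0.34 and Ppp1r16b −0.40 against −0.55, and Bcl7a and Hsph1 are given above. The slow-fibre genes Tnni1 and Myh7, picked by their p in the other strains, had values nearer 0 in WSB/EiJ. Tnni1 had 0.35 in WSB/EiJ, at no more than 0.510 CPM in any library, against −3.68 (−0.413 in WSB/EiJ without mouse 5). Myh7 had −0.77 against −3.37, and ran from −1.07 to 0.58 in WSB/EiJ over the settings. Neither difference from the other strains passed the edgeR FDR. None of the genes in this paragraph passed the edgeR FDR in WSB/EiJ.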

How the data were processed

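Total RNA of flash-frozen tibial metaphysis was sequenced as paired-end reads from stranded mRNA libraries, per the labels' protocols. The authors deposited 1 table of raw counts per gene, and the submitters' processing notes name mm10, featureCounts and DESeq2 without versions. Aligner, annotation and strand setting: not given in the sources used here. mm10 is the genome of C57BL/6J, so WSB/EiJ reads were counted against another strain's sequence. Every library column matched 1 sample by its name.

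The counts were analysed in R 4.3.3 with edgeR 4.0.16: TMM scaling, its filter on low counts (16882 genes kept), and a robust quasi-likelihood F test with mouse as a block and a separate limb effect in every strain, in 44 libraries of 22 mice. The 2 A/J control libraries under 1e+05 counts and the cast limbs of their mice were left out. SEs are the log2 value divided by the square root of F. P-values were adjusted by Benjamini and Hochberg over all genes, with an FDR threshold of 0.05. The series design states that each mouse gave both limbs. Deviations of the paired WSB/EiJ limbs from their group means correlated at 0.192, 0.324 and 0.482 in mice 2, 4 and 5. The median over 21 mice, these 3 included and A/J left out, was 0.089. All strains share the fitted spread, and 3 pairs limit the precision. Log2 changes per mouse used CPM with a prior count of 2. DESeq2 1.42.0, other scalings and filters, a fit without the mouse term, a fit of WSB/EiJ alone and leaving out each mouse were alternatives. Before use the code was run on simulated counts with no mouse effect and only large changes in well-counted genes. That run cannot show how well smaller changes or genes with low counts are called.

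Members and gene lists were chosen with earlier results of these data known. The genes named are those past the FDR, the 12 with the smallest p in each direction among genes with a gene name, the same direction in 3 of 3 mice and a mean of at least 1 CPM, the first 3 measured members of each list, the adrenergic receptors, and the 6 per direction with the smallest p in the other strains. Members of a list beyond the first 3 were chosen for naming after their values were seen, as were genes identified as such. Many of the genes that the rule names are not reported here. Symbols of 16375 genes matched GENCODE M21, which gave the coordinates, and promoters came from RefSeq.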

Additional observations from a re-analysis of the deposited data

Results flagged for a closer look

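The cast effect of WSB/EiJ differed from that of CAST/EiJ in 717 genes by the edgeR test of the difference. Among the genes named above, the log2 difference was −3.27 for Col1a1, −3.62 for Bglap, −3.03 for Dcn, −2.08 for Ecm2, −2.23 for Ntn4, −2.45 for Alpl, −2.58 for Irx5 and −2.62 for Notum. Lower too were C1qtnf6 at −2.90, Cys1 at −2.13, Cdkn1a at −1.85, Ctsh at −1.23, H1f0 at −1.15, Slc29a1 at −0.97, Rab11fip4 at −0.96 and Cyth3 at −0.84. Higher in WSB/EiJ than in CAST/EiJ were Rag1 at 3.17, Gp1ba at 3.00, Dlg2 at 2.07, Adra2a at 1.95, Pf4 at 1.61, Itgb3 at 1.52 and F2r at 1.13. The count of 717 became 23 with WSB/EiJ mouse 5 left out, 150 with mouse 4 left out, 8 with no mouse block and 358 with the skeletal muscle score in the model.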

How the results depend on the processing

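Another scaling of the counts, another filter, all 48 libraries or no A/J left Adra2a as the single gene past the FDR. DESeq2 called 21 genes, and 0 passed in edgeR with WSB/EiJ fitted alone (1261 at an unadjusted p under 0.05) or without any 1 mouse (0 to 0). With no replicate block, that is without the pairing by mouse, 0 genes passed (898 at an unadjusted p under 0.05), 8 passed in the difference from CAST/EiJ, the same-sign share was 78.7%, and the cAMP and disused muscle medians were 0.105 and −0.286. The CAST/EiJ count was 473 with no filter, 1406 in DESeq2, 358 with the muscle score and 23 to 603 without 1 mouse. The NOD/ShiLtJ count was 2 with the stricter filter, 537 in DESeq2, 13 with all 48 libraries, 2 without A/J and 236 with the muscle score, and 7 (DESeq2) and 3 (muscle score) genes passed against the other strains. The same-sign share was 66% with all 48 libraries, 52.2% without A/J, 85.8% with the muscle score and 66% to 73.7% without 1 mouse.

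With the muscle score the medians were −0.384 for skeletal muscle, 0.109 for disused muscle, 0.159 for cAMP, 0.131 for mast cells, 0.306 for oxidative phosphorylation and 0.398 for hypoxia, Myh7 turned to 0.58, and the 1 gene called was Actn2, not Adra2a. Without 1 mouse the ranges were −0.36 to −0.103 for Wnt, −0.79 to −0.247 for adrenergic receptors (0.755 with WSB/EiJ alone), 0.0792 to 0.102 for cAMP and −0.286 to −0.195 for disused muscle, and Tnni1 ran from −0.413 (without mouse 5) to 1.01. The cAMP median was 0.14 with no filter, and the disused muscle median −0.289 with the stricter filter, −0.279 in DESeq2, −0.285 with all 48 libraries and −0.287 without A/J. The cause was not tested. In the other 383 combinations of a list and a setting, the median moved by less than its spread between mice, which includes changes of sign. With the muscle score the medians turned to 0.42 for osteoblasts, 0.173 for osteoclasts, 0.656 for the growth plate, 0.212 for fibrous tissue, −0.0439 for neutrophils, −0.171 for T and NK cells, −0.197 for the cell cycle, 0.0685 for the clock, 0.073 for glucocorticoid response, 0.0175 for immediate early genes and 0.199 for the insulin-like growth factor axis. Medians of stromal cells, endothelium, osteoclast regulators and oxidative phosphorylation changed sign when 1 mouse was left out. Counts of 98 in control limbs limit the precision for Adra2a, and 3 pairs that for every gene.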
